A study of Mus musculus with 24 samples.

Results

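Tor3a, Tor1aip1 and Tor1aip2 are neighbouring genes of mouse chromosome 1 that were chosen because their signals were raised by interferon in these arrays. All 9 probe sets that the platform annotation gives to one of the 3 symbols alone were taken (3 for Tor3a, 2 for Tor1aip1 and 4 for Tor1aip2), out of 45037 probe sets without controls. All 9 were among the 19305 probe sets with a value above log2 4, taken as background, on at least 3 arrays, but the Tor3a probe set 1450454_at passed only through the 3 arrays of IFN-alpha at 3 h. Total RNA came from the mouse embryonic fibroblast line NIH-3T3, and each value is a GCRMA signal of one array on the log2 scale. The 3 h groups, with 3 arrays each, were IFN-alpha (100 U/ml), IFN-gamma (100 U/ml) and mock medium, and all of these cells had 500 uM 4-thiouridine (4sU), a nucleoside built into new RNA, from 150 to 180 min. The 1 h groups, with 4 arrays each, were again IFN-alpha, IFN-gamma and mock, all with 200 uM 4sU for the whole 60 min, and 3 further mock arrays at 1 h had no 4sU. The labels do not say whether replicates were separate cultures, so p-values here reflect array-to-array spread that may be only technical.

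Torsins are ATPases of the AAA+ family that lie inside the endoplasmic reticulum and the space between the membranes of the nuclear envelope. They have little activity alone and are switched on by membrane proteins that bind them. Tor1aip1 encodes LAP1, an activator in the inner nuclear membrane that also binds lamins, and Tor1aip2 encodes LULL1, a related activator found throughout the endoplasmic reticulum. Tor3a encodes torsin 3A, which is listed under the older name Adir, and the gene table also lists Tor1aip2 under Ifrg15. IFN-alpha acts through the type I receptor and drives genes with an interferon-stimulated response element, while IFN-gamma acts through its own receptor and drives genes with GAS elements.

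The promoters of the neighbouring activator genes are shown because the genes lie on opposite strands with their 5′ ends together. Sequences are RefSeq windows of GRCm38.p6 from 250 bases before to 50 bases after an annotated start, read 5′ to 3′ on the strand of the gene. The table matched 2 of the 3 members by symbol, with 2 windows for Tor1aip1 and 5 for Tor1aip2. The closest annotated starts of these genes were 444 bases apart on opposite strands. Windows shown are the upstream start of Tor1aip1 (minus strand, chr1:156036431-156036730), the start of Tor1aip2 nearest to it (plus strand, chr1:156035786-156036085) and a downstream start of Tor1aip2 (plus strand, chr1:156040590-156040889), where capitals mark the only kind of motif match found.
Tor1aip1 upstream start: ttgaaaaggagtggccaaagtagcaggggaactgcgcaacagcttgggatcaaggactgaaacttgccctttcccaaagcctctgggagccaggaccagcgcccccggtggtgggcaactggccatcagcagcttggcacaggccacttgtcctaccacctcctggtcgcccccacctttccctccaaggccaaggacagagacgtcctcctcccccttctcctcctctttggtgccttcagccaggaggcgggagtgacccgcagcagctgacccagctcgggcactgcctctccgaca
Tor1aip2 start nearest Tor1aip1: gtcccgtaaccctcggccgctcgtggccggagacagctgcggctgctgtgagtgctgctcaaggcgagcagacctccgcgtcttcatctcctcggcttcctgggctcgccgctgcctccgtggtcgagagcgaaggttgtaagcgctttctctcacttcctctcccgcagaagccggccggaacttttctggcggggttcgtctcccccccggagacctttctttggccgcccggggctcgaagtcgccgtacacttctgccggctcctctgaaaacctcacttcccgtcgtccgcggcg
Tor1aip2 downstream start: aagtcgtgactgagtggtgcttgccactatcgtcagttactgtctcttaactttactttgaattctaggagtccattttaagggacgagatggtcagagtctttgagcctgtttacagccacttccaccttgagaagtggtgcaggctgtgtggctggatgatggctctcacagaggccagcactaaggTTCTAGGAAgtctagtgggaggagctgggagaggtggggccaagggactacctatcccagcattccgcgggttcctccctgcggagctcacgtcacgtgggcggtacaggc
Both strands of all 7 windows were searched for an interferon-stimulated response element core (GAAA, any 2 bases and GAAA, or TTTC, any 2 bases and TTTC on the other strand) and for a GAS element (TTCNNNGAA, which reads the same on both strands). The core was found in 0 of 7 windows, beside 3.44% of 32851 promoter windows of the table. The GAS letters were found in 2 of 7 windows, beside 8.3% of all windows. Both matches were the same site, TTCTAGGAA, whose first base lies at position -61 from the start shown and at -82 from the other downstream start. These matches describe letters only.

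In the values as processed by GCRMA, array medians were 2.95 to 3.11, with 16933 to 17688 probe sets above log2 4. Such processed values cannot show whether the arrays were alike before it. Signal from 8 fibroblast markers, led by Vim, had a median of 12.8, against 2.47 for 6 leukocyte and 2.53 for 7 epithelial and endothelial markers. The leukocyte marker Cd14 averaged 5.35 and was above log2 4 on all 24 arrays. The median SD between replicates was 0.118 to 0.127 on the log2 scale at 3 h and 0.350 to 0.403 at 1 h. On 5 arrays the 5′ actin control was low, with a 3′ minus 5′ difference of 2.22 to 3.43, against 0.785 to 1.37 elsewhere. These were replicate 2 of each 1 h group with 4sU and replicates 2 and 3 without 4sU, and none was at 3 h. In bulk RNA, more RNA per cell and more cells with the RNA cannot be told apart.

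**Figure D1:**
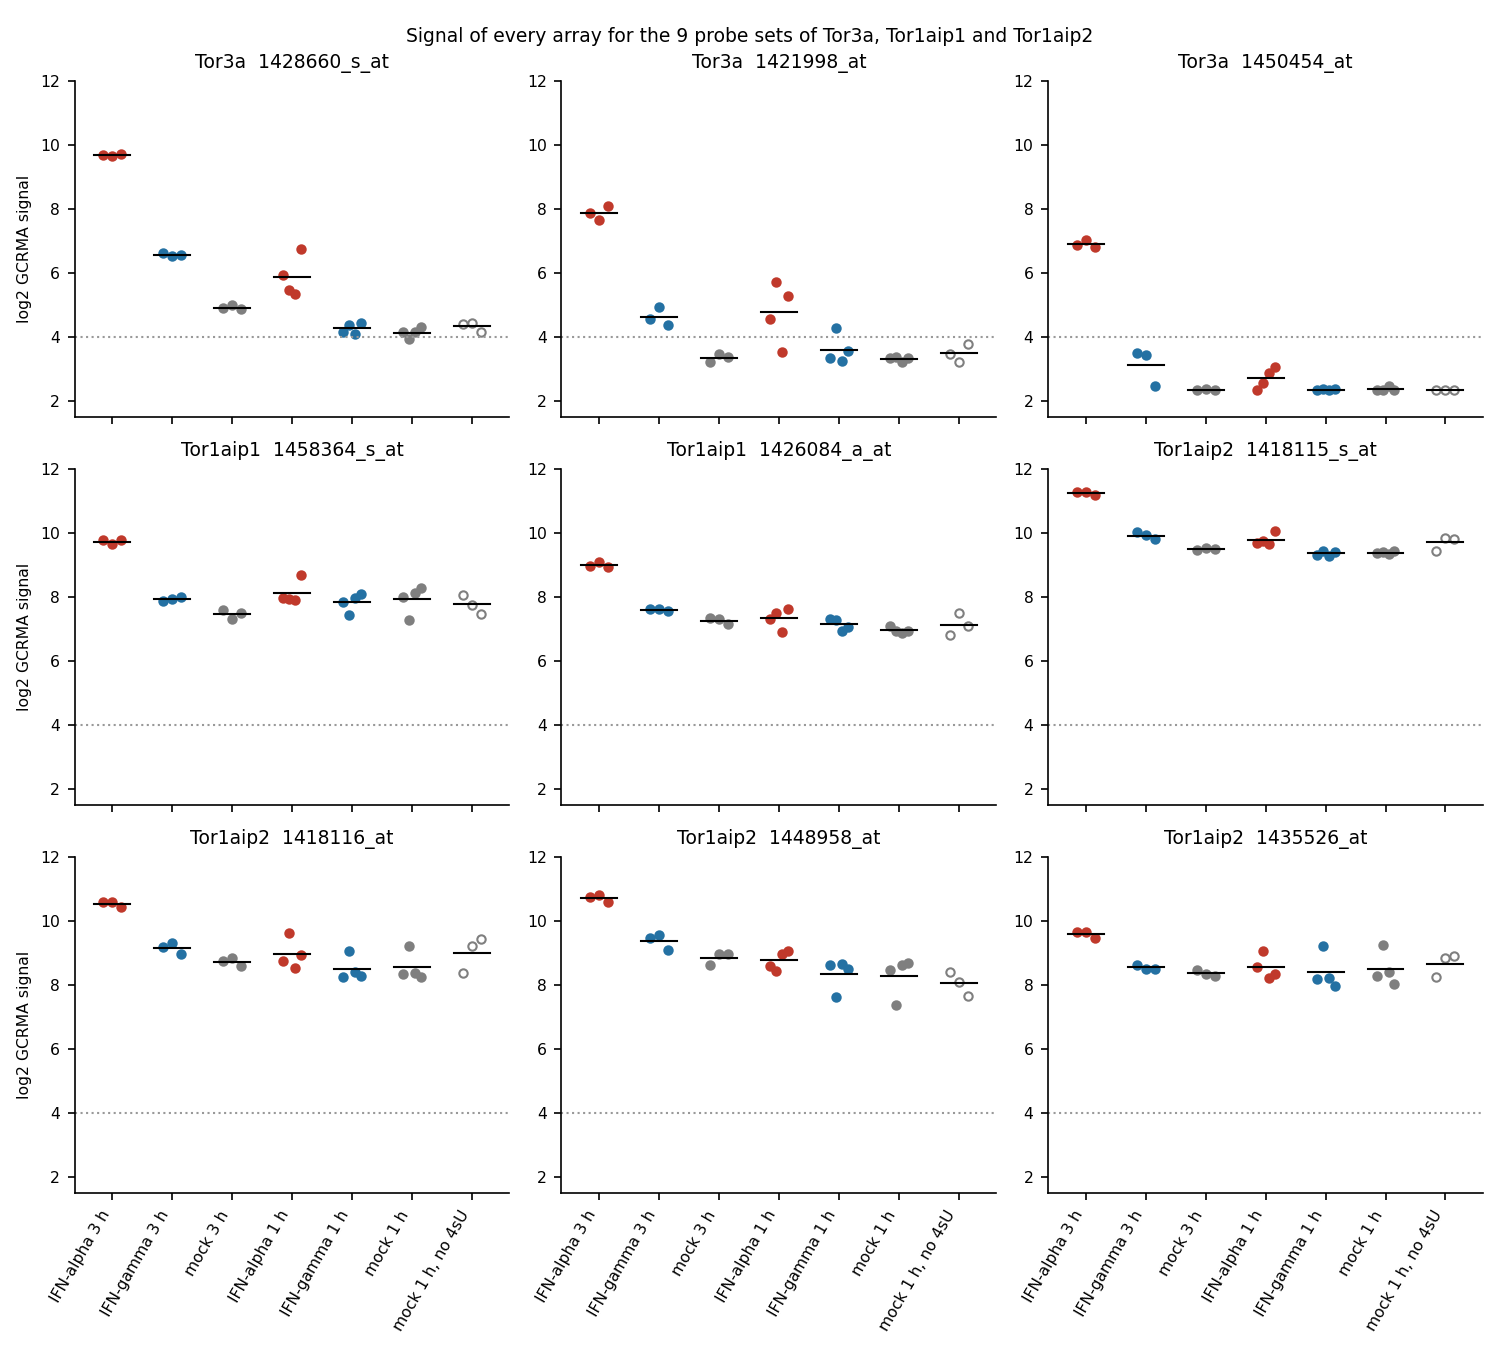
GCRMA signals (log2, vertical axis) of each of the 9 probe sets on all 24 arrays, by group, with group means. The 3 IFN-alpha arrays at 3 h stand highest in every panel.

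Tor3a responded most. Its probe set 1428660_s_at read 9.67, 9.64 and 9.72 with IFN-alpha at 3 h, 6.64, 6.52 and 6.55 with IFN-gamma, and 4.89, 4.99 and 4.88 in mock cells. The 3 groups did not overlap at 3 h. With IFN-alpha the log2 difference from mock was 4.76 ± 0.24 (SE), which is 27.1-fold, and with IFN-gamma it was 1.65 ± 0.24, or 3.14-fold. At 1 h it read 5.94, 5.47, 5.36 and 6.74 with IFN-alpha, 4.17, 4.37, 4.10 and 4.45 with IFN-gamma, and 4.15, 3.94, 4.17 and 4.31 in mock cells. The IFN-alpha arrays at 1 h were thus all above both other groups, with a difference from mock of 1.74 ± 0.20, and those of IFN-gamma overlapped mock (0.13 ± 0.20). In order of mean level this probe set ran IFN-alpha at 3 h (9.68), IFN-gamma at 3 h (6.57), IFN-alpha at 1 h (5.88), mock at 3 h (4.92), mock at 1 h without 4sU (4.34), IFN-gamma at 1 h (4.27) and mock at 1 h (4.14). Its IFN-gamma arrays at 3 h overlapped those of IFN-alpha at 1 h, and the 3 lowest groups overlapped one another. Differences from mock are given as a description throughout, because the genes were chosen on them.

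The other Tor3a probe sets moved the same way from a lower base. Probe set 1421998_at read 7.88, 7.66 and 8.09 with IFN-alpha at 3 h, 4.57, 4.92 and 4.37 with IFN-gamma, and 3.23, 3.46 and 3.38 in mock cells. All mock arrays were under the background of 4, so its difference from mock is given as at least 14.7-fold with IFN-alpha and at least 1.54-fold with IFN-gamma. Probe set 1450454_at read 6.89, 7.02 and 6.80 with IFN-alpha at 3 h, against 3.50, 3.44 and 2.48 with IFN-gamma and 2.36, 2.37 and 2.34 in mock cells. It was under background on every array outside IFN-alpha at 3 h, where its difference from mock was at least 7.47-fold, so it is left out of the counts and medians over probe sets below.

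Tor1aip1, the inner nuclear membrane activator, was measured well above background in all groups. Its probe set 1458364_s_at read 9.77, 9.64 and 9.78 with IFN-alpha at 3 h, 7.89, 7.94 and 8.00 with IFN-gamma, and 7.61, 7.33 and 7.52 in mock cells. The groups did not overlap at 3 h, and differences from mock were 2.25 ± 0.24 with IFN-alpha (4.75-fold) and 0.46 ± 0.24 with IFN-gamma (1.38-fold). At 1 h it read 7.98, 7.94, 7.90 and 8.68 with IFN-alpha, 7.85, 7.44, 7.98 and 8.10 with IFN-gamma, and 8.01, 7.29, 8.13 and 8.27 in mock cells. These groups overlapped, with differences from mock of 0.19 ± 0.21 for IFN-alpha and -0.08 ± 0.21 for IFN-gamma. Its group at 3 h with IFN-alpha stood apart from the other 6, whose means ran from 8.12 to 7.48 and whose neighbours in that order overlapped.

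Tor1aip1 had a second probe set, 1426084_a_at, with 8.97, 9.11 and 8.94 for IFN-alpha at 3 h, 7.62, 7.62 and 7.55 for IFN-gamma, and 7.34, 7.31 and 7.14 for mock. The difference from mock here was 1.74 ± 0.18 with IFN-alpha (3.34-fold) and 0.33 ± 0.18 with IFN-gamma. Between the mock times the probe sets of Tor1aip1 went opposite ways, with 1458364_s_at at -0.44 ± 0.22 and 1426084_a_at at 0.30 ± 0.17 (3 h minus 1 h, where 4sU dose and labelling window changed too). The signal of 1458364_s_at minus that of 1426084_a_at was 0.53 to 0.85 with IFN-alpha at 3 h, 0.27 to 0.45 with IFN-gamma and 0.02 to 0.37 in mock cells.

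Tor1aip2, the gene of the endoplasmic reticulum activator, gave its highest signal with IFN-alpha at 3 h as well. Which transcripts of Tor1aip2 its probe sets read was not tested. Its probe set 1418115_s_at read 11.27, 11.26 and 11.20 with IFN-alpha at 3 h, 10.02, 9.94 and 9.79 with IFN-gamma, and 9.46, 9.54 and 9.49 in mock cells. The groups did not overlap, and the differences from mock were 1.75 ± 0.13 with IFN-alpha (3.35-fold) and 0.42 ± 0.13 with IFN-gamma (1.34-fold). At 1 h it read 9.69, 9.75, 9.64 and 10.06 with IFN-alpha, 9.30, 9.44, 9.29 and 9.42 with IFN-gamma, and 9.37, 9.39, 9.34 and 9.42 in mock cells. The IFN-alpha arrays at 1 h were all above mock, by 0.40 ± 0.11 (1.32-fold). Replicates 2 and 3 of mock without 4sU had low 5′ actin signal. Against that control this probe set differed by 0.08 ± 0.12, with overlap. In order of mean level it ran IFN-alpha at 3 h (11.24), IFN-gamma at 3 h (9.92), IFN-alpha at 1 h (9.79), mock at 1 h without 4sU (9.71), mock at 3 h (9.50), mock at 1 h (9.38) and IFN-gamma at 1 h (9.36). Among neighbours in this order, only IFN-alpha from IFN-gamma at 3 h and mock at 3 h from mock at 1 h did not overlap.

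The remaining 3 probe sets of Tor1aip2 differed from mock at 3 h by 1.81 ± 0.30 (1418116_at), 1.86 ± 0.31 (1448958_at) and 1.23 ± 0.31 (1435526_at) with IFN-alpha. The last was the smallest difference of the 9 with IFN-alpha at 3 h. With IFN-gamma these probe sets differed from mock by 0.43, 0.53 and 0.18. The signal of 1418115_s_at minus that of 1435526_at was 1.61 to 1.71 with IFN-alpha at 3 h, 1.30 to 1.43 with IFN-gamma and 1.00 to 1.21 in mock cells. These ranges did not overlap, so 1435526_at changed unequally with 1418115_s_at. The same quantity overlapped between all 3 groups for 1418116_at (0.67 to 0.77 with IFN-alpha, 0.63 to 0.83 with IFN-gamma and 0.71 to 0.89 in mock cells). It did so too for 1448958_at (0.44 to 0.62 with IFN-alpha, 0.36 to 0.69 with IFN-gamma and 0.53 to 0.82 in mock cells).

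In the 8 probe sets above background in more than 1 group, every IFN-alpha array at 3 h lay above every mock array, as was the case for 6.21% of all probe sets tested. The same held for these 8 with IFN-gamma at 3 h, beside 8.31%. Their median difference from mock was 1.84 with IFN-alpha and 0.44 with IFN-gamma, beside -0.06 and -0.05 over all probe sets. At 1 h the arrays of IFN-alpha were all above mock in 3 of 8 (0.508% of all), and those of IFN-gamma in 0 of 8 (0.746% of all). In the 7 probe sets whose mean was above background in every group, the difference from mock at 3 h exceeded that at 1 h by 1.17 to 3.02 with IFN-alpha and by 0.14 to 1.52 with IFN-gamma.

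**Figure D2:**
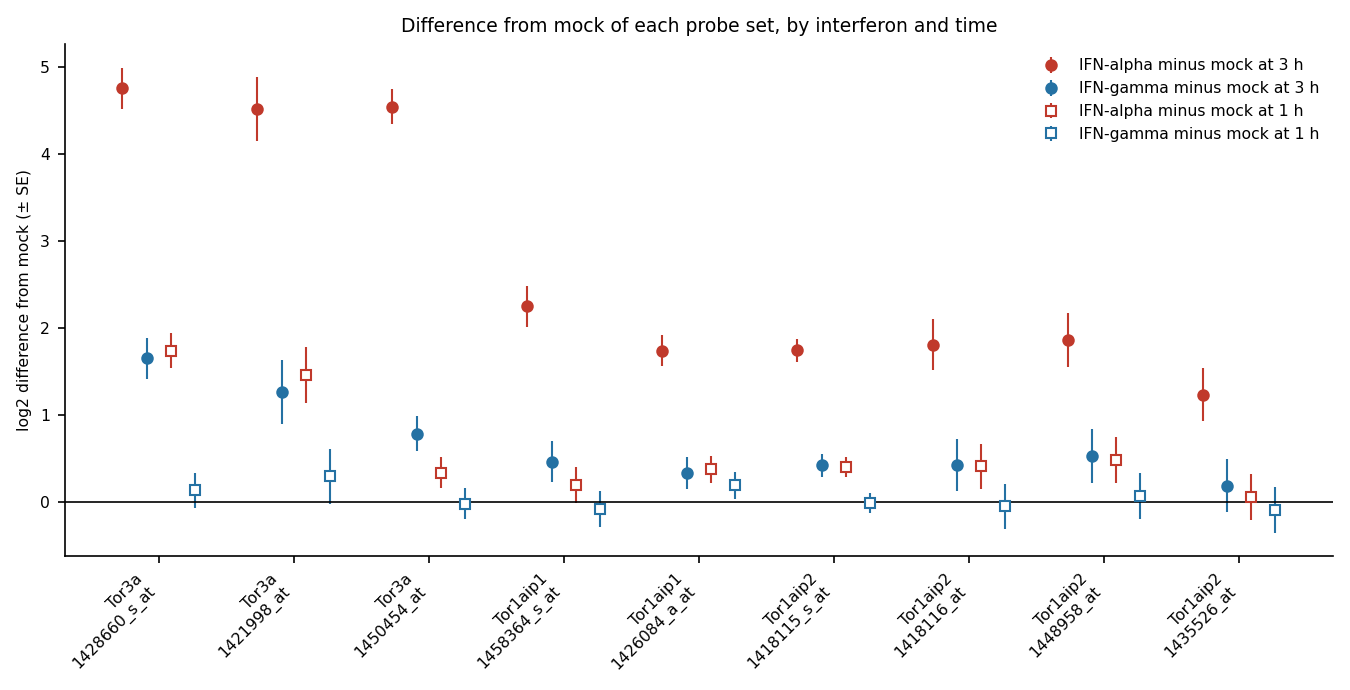
Log2 differences from mock of the same time (vertical axis, ± SE) for each of the 9 probe sets (horizontal axis), by interferon and time. IFN-alpha at 3 h ranged from 1.23 to 4.76 and IFN-gamma at 3 h from 0.18 to 1.65.

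Whether the interferons differed was tested directly. The choice of members did not use that comparison, but it did use the same treated arrays. The p-values and counts of this test are therefore not independent of the choice. At 3 h limma called 7 of 8 probe sets higher with IFN-alpha than with IFN-gamma, beside 0.761% of all probe sets called higher. The arrays did not overlap for any of the 8 (8.82% of all). Tor3a was 8.63-fold higher with IFN-alpha (1428660_s_at, 3.11 ± 0.24, adjusted p = 1.22e-08), and 1421998_at gave 9.54-fold (adjusted p = 7.00e-06). Probe set 1450454_at, which was kept through the IFN-alpha arrays alone, was at least 7.47-fold higher, given as a description. Tor1aip1 was 3.44-fold higher by 1458364_s_at (adjusted p = 6.31e-05) and 2.65-fold by 1426084_a_at (3.36e-05). Tor1aip2 was 2.50-fold higher by 1418115_s_at (1.32 ± 0.13, adjusted p = 9.66e-07).

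The weaker Tor1aip2 probe sets carry limits. Adjusted p was 0.0130 for 1418116_at (0.0342 to 0.0871 with 1 array left out) and 0.0240 for 1448958_at (0.0504 to 0.163, so that any array left out ended the call). Probe set 1435526_at missed the threshold (1.05 ± 0.31, adjusted p = 0.131), and its arrays did not overlap. With the replicate number as a block its adjusted p was 0.00119, and without the 5 arrays of low 5′ actin signal 7.38e-05. The probe sets named _s_at can match several transcripts or genes by the maker's naming, which bears on the highest probe set of each member.

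At 1 h the same test called 1 of 8, Tor3a by 1428660_s_at (1.61 ± 0.20, 3.04-fold, adjusted p = 0.000165), beside 0.104% of all called higher. In a fit of only the arrays of the groups compared the adjusted p was 0.336, and with 1 array left out it was 3.76e-05 to 0.00133. Without the arrays of low 5′ actin signal the difference was 1.77 (adjusted p = 0.000913). The Tor3a probe set 1421998_at was at least 1.63-fold higher (adjusted p = 0.257), with overlap and an IFN-gamma mean of 3.61, under background. Its difference was 1.17 ± 0.32 on the values as deposited and 0.82 with values below 4 set to 4. Without IFN-alpha replicate 3 at 1 h the adjusted p of the deposited values was 0.00304. Tor1aip2 1418115_s_at was above on all arrays (0.42 ± 0.11, adjusted p = 0.238), 1 of 2 probe sets of the 8 without overlap, beside 0.57% of all. Tor1aip1 differed by 0.28 (95% interval -0.16 to 0.71) and 0.18 (-0.14 to 0.51), so a difference was not detectable at this spread, nor shown to be absent.

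Label exposure alone was tested in mock cells at 1 h with 4sU against without it, a comparison the choice of members did not use. By limma 0 of 8 were called, beside 0.0311% of all called in either direction. At an unadjusted p under 0.05 there was 1 of 8, Tor1aip2 1418115_s_at, beside 7% of all probe sets. Tor1aip2 1418115_s_at read 9.37, 9.39, 9.34 and 9.42 with 4sU, against 9.44, 9.85 and 9.82 without. The arrays with 4sU were all lower, as in 2.9% of all probe sets, with a difference of -0.32 (95% interval -0.58 to -0.07, adjusted p = 0.553). Of the arrays without 4sU, replicates 2 and 3 are arrays of low 5′ actin signal, and without all such arrays the difference was -0.06. The differences of the 7 probe sets above background ran from -0.46 to 0.23, with the lowest, 1418116_at of Tor1aip2, at -0.04 without those arrays. That leaves 1 array without 4sU, which is assumed to vary like the other groups.

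Replicate 2 at 1 h moved the Tor1aip2 probe sets against one another. Probe set 1418116_at read 9.62 on that array with IFN-alpha, 9.06 with IFN-gamma and 9.21 in mock cells, each the highest of its group. Probe set 1448958_at read 8.45, 7.64 and 7.38 there, each the lowest of its group. In mock cells without 4sU, replicates 2 and 3 read 9.22 and 9.43 by 1418116_at, with 8.37 in replicate 1, and 8.10 and 7.67 by 1448958_at, with 8.40 in replicate 1. These are the arrays of low 5′ actin signal, and their part was not tested.

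No gene of the nuclear envelope lists passed the test against mock, which was not run for the members. Of the 4 other torsins, Tor1a, Tor1b and Tor2a were measured and Tor4a was under background in all groups (means of 2.71 to 2.97). With IFN-alpha at 3 h Tor1a differed from mock by -0.26 ± 0.35, Tor1b by -0.14 ± 0.22 and Tor2a by -0.12 ± 0.38. With IFN-gamma these differences were -0.16, -0.07 and -0.20. For Tor1a and Tor2a every array of either interferon at 3 h lay below every mock array, and Tor1b overlapped mock. The share of all probe sets that lay below in this way is not given here, so no fall is read from it. Replicate SDs at 3 h were 0.08 to 0.11 for Tor1a and 0.02 to 0.04 for Tor2a. The ± values are wider because they also take in the 1 h arrays.

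The lists of lamina and inner nuclear membrane genes, LINC complex genes (which link the envelope to the cytoskeleton) and pore and envelope-sealing genes had 16, 5 and 8 measured members. Together with the torsins, 32 genes, limma called 0 against mock for both interferons at both times, beside 1.53% of all probe sets called higher with IFN-alpha at 3 h, 1.88% with IFN-gamma at 3 h, 0.259% with IFN-alpha at 1 h and 0.435% with IFN-gamma at 1 h. At an unadjusted p under 0.05 there were 0 of 32 at 3 h with IFN-alpha (3.14% of all probe sets) and with IFN-gamma (4.77% of all). At 1 h there was 1 with IFN-alpha (Chmp7, which recruits sealing proteins to the envelope), beside 1.6% of all, and 0 with IFN-gamma, beside 3% of all. With calls this rare, 0 of 32 does not set these lists apart from all probe sets. The 32 had a median of -0.10 with IFN-alpha at 3 h. The largest differences there were -0.50 ± 0.49 for Lmnb1, which encodes lamin B1, and 0.47 ± 0.30 for Chmp4b, a sealing filament subunit. Sun1, an inner membrane subunit of the LINC complex, differed by -0.29 ± 0.29.

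**Figure D3:**
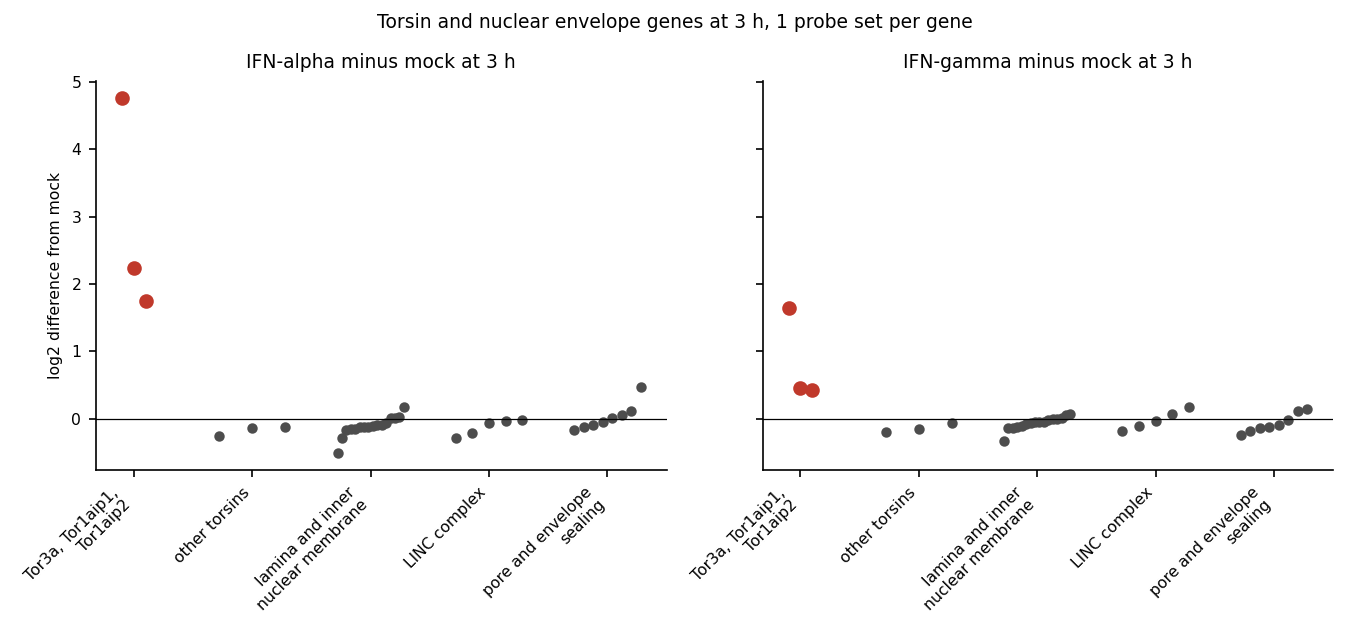
Log2 differences from mock at 3 h of the members and of envelope genes by list, one point a gene, for IFN-alpha and IFN-gamma. The 32 list genes lay between -0.50 and 0.47 with IFN-alpha and between -0.33 and 0.18 with IFN-gamma.

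Along chromosome 1 the test against mock was passed by 1 neighbour, Abl2, with IFN-gamma at 3 h. In the gene order of GRCm38.p6, Tor1aip1 and Tor1aip2 are adjacent, and Tor3a lies further along, directly after Abl2. Of 74 neighbours within 10 coding genes of the members on either side, 24 had a probe set and 13 were measured. With IFN-alpha at 3 h, limma called 0 of 13, beside 1.53% of all called higher. At an unadjusted p under 0.05 there were 2 of 13, Abl2 and Fam20b, beside 3.14% of all. Fam20b, a xylose kinase of matrix sugar synthesis that follows Tor3a, differed from mock by 0.40 ± 0.16 (adjusted p = 0.890). Every array with IFN-alpha at 3 h lay above every mock array for 3 of 13, Ier5, Abl2 and Fam20b (6.21% of all), and below for 2. With IFN-gamma at 3 h, 4 lay above (8.31% of all) and 0 below. The shares of all probe sets that lay below are not given here, so no fall is read from those numbers. At 1 h limma called 0 of 13 with IFN-alpha (0 at an unadjusted p under 0.05, beside 1.6% of all) and 0 with IFN-gamma (1, Ier5, beside 3% of all).

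Abl2, a tyrosine kinase gene directly before Tor3a, was the gene called. Its probe set 1455495_at read 9.55, 9.65 and 9.67 with IFN-gamma, against 8.98, 8.97 and 9.02 in mock cells. It rose by 0.63 ± 0.14 (adjusted p = 0.0163), 1 of 13 called, beside 1.88% of all called higher. The call ended when arrays were centred on their medians and in 5 of 6 fits with 1 array left out. A second Abl2 probe set, 1455682_at, differed by 0.70 ± 0.23 (adjusted p = 0.219).

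**Figure D4:**
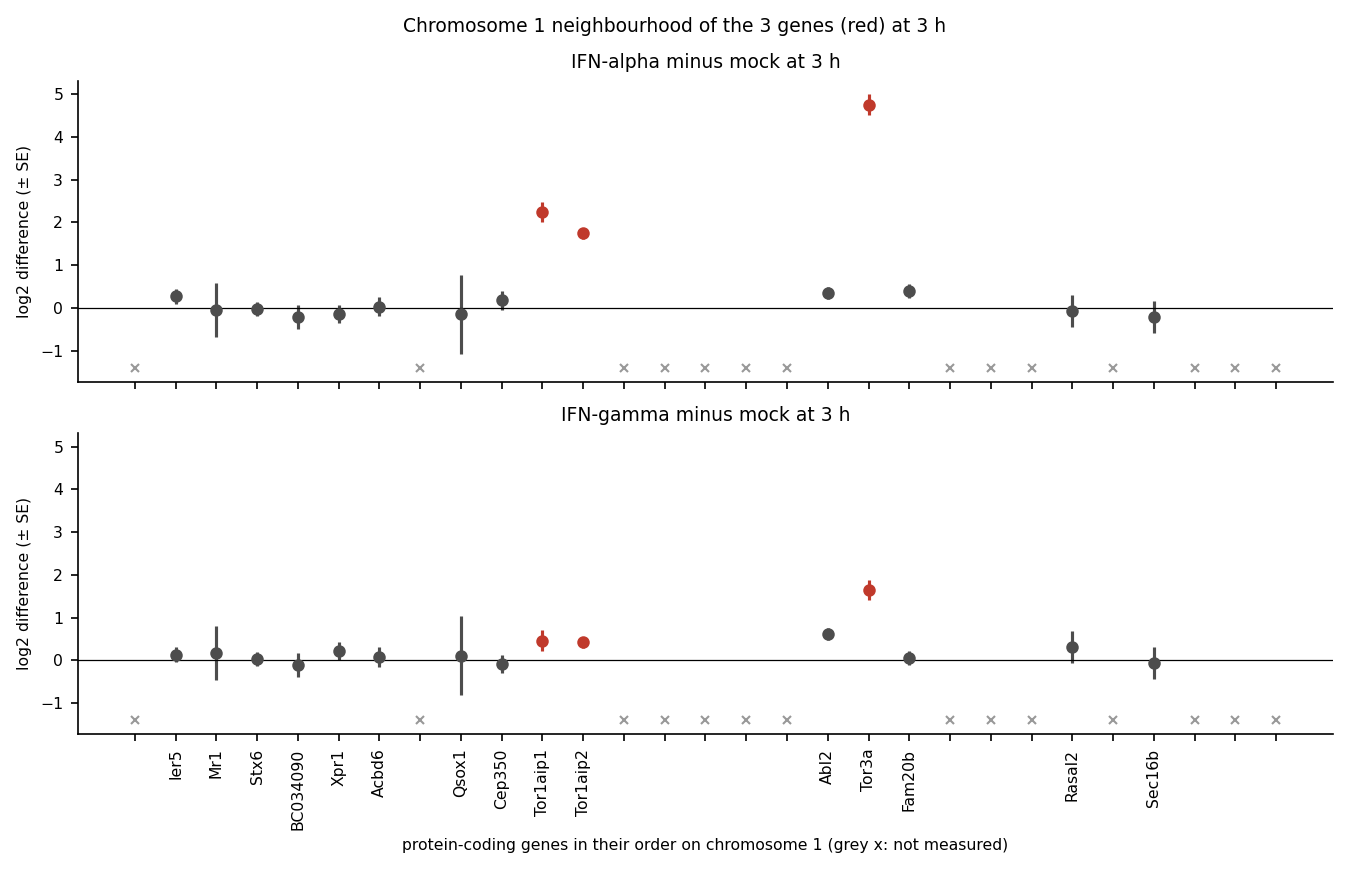
Log2 differences from mock at 3 h along the coding-gene order of chromosome 1 around the members (horizontal axis, order only), with ± SE, for IFN-alpha and IFN-gamma; grey crosses without a name are genes not measured. With IFN-alpha the measured coding neighbours were at most 0.40, below all 3 members, which were chosen as raised by interferon.

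Each member was also set beside the genes whose signal was most like its own over the 24 arrays. Among 2010 other genes whose group means spanned at least 1, Tor3a was most like Usp18, which removes ISG15 and dampens type I signalling (Pearson r = 0.99). Eif2ak2, the double-stranded RNA kinase (0.97), Slfn8 (0.97), Rnf213 (0.97) and Ddx58, an RNA sensor (0.96), followed. Tor1aip1 was most like Daxx, a nuclear body histone chaperone (0.94), and Irf7, a transcription factor of interferon induction (0.92), followed by Cmpk2 (0.91), Tdrd7 (0.91) and Trim30d (0.90). Tor1aip2 was most like Dhx58, an RNA sensor relative (0.96), followed by Tdrd7 (0.96), Irf7 (0.96), Tor3a itself (0.96) and Cmpk2 (0.95). Irf7, Cmpk2, Trim30d and Dhx58 were under log2 4 on average in every group but IFN-alpha at 3 h. These r are descriptions over arrays that share treatments. Between the members r was 0.86 for Tor3a with Tor1aip1 and 0.87 for Tor1aip1 with Tor1aip2. Without the arrays of low 5′ actin signal, 3, 2 and 4 of the 5 genes listed stayed for Tor3a, Tor1aip1 and Tor1aip2. With values below log2 4 set to 4, 4, 3 and 2 stayed, and Dhx58, Irf7 and Cmpk2 dropped out for Tor1aip2.

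**Figure D5:**
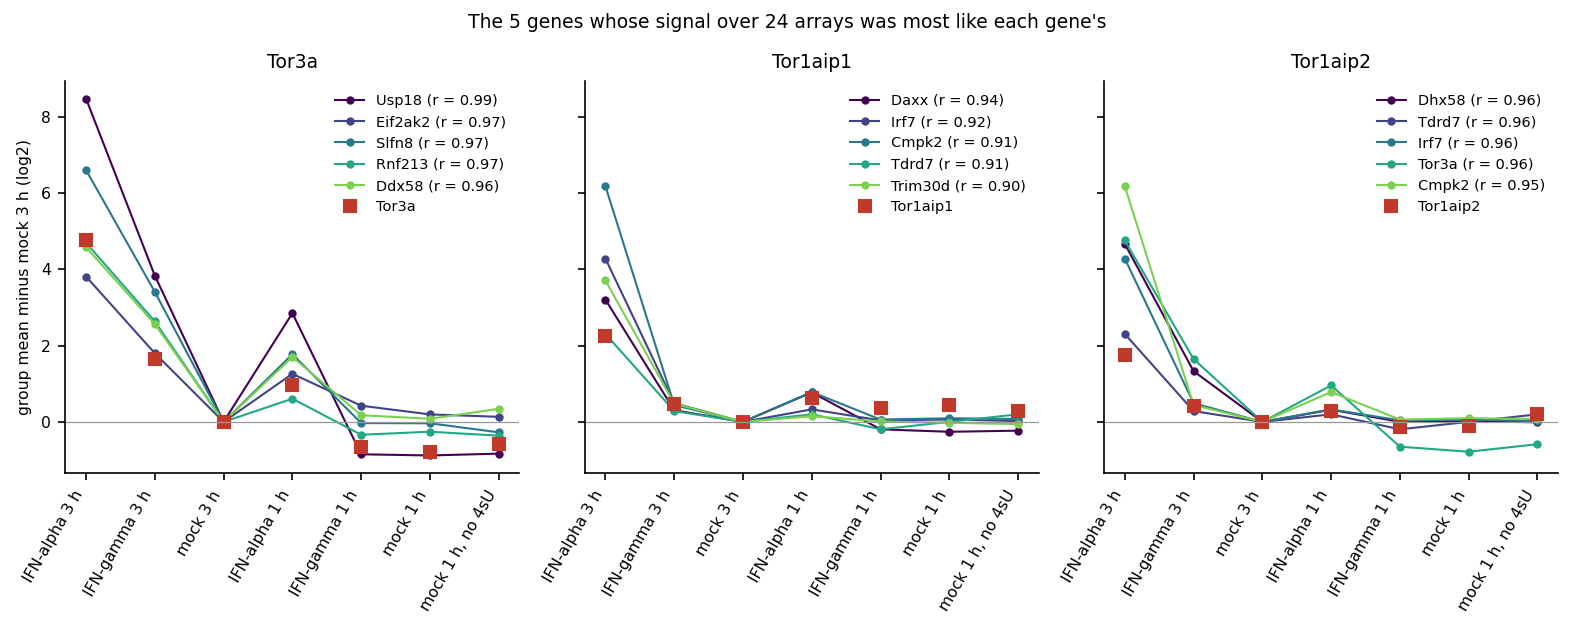
Group means minus mock at 3 h (log2, vertical axis) of each member's probe set of highest mean and of the 5 genes most like it, across the 7 groups. Each is highest with IFN-alpha at 3 h, and r for the genes named runs from 0.90 to 0.99.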

How the data were processed

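Total RNA of NIH-3T3 cells was measured on 24 one-colour arrays in 7 groups, which are the groups the labels name. The authors deposited log2 values made with GCRMA, per the submitters' processing notes, whose version and number of runs are not given in the sources used here. No further normalization was applied. The GEO platform annotation gave 34945 of 45037 probe sets a single symbol, 932 several and 9160 none. Probe sets above log2 4 on at least 3 arrays were kept (19305) and fitted together with limma 3.58.1 (lmFit, eBayes, R 4.3.3, data.table in version 1.17.8), with a mean per group and no replicate term (17 residual df). All tests are two-sided, and calls take an adjusted p under 0.05 (Benjamini-Hochberg, all kept probe sets). The fit gives each probe set 1 variance for all groups, so SEs pool the smaller spread at 3 h with the larger at 1 h. For Tor3a 1428660_s_at replicate SDs were 0.04 to 0.06 at 3 h and 0.63 with IFN-alpha at 1 h. A ± SE is thus not the spread of the groups it stands beside. Array number limits the precision. Folds with a lower group under log2 4 are lower bounds.

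Members and lists were chosen with earlier results of these data known. Named genes are all member probe sets, list genes called, otherwise up to 3 per list with the largest difference, and the 5 most alike by Pearson r. Same-numbered arrays of the interferon and mock groups of one time correlated in their deviations from the group means at 0.128 to 0.914, so the numbers pair them. The main fit does not use this pairing, and the calls with it as a block are given at the end. Those with and without 4sU did so at 0.0809 to 0.802. Alternatives were a replicate block, other filters, a floor, centring, fits of the compared groups only, mock without 4sU as the control, and arrays left out. Simulated data were used to test the fit.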

Additional observations from a re-analysis of the deposited data

Results flagged for a closer look

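Among 27 probe-set and 1 h group combinations of 4 arrays, 5 had 1 array further from the rest than Dixon's 95% limit for 4 values, and chance gives about 5%. Tor3a 1450454_at read 2.47 in mock replicate 3 at 1 h, with the others at 2.35 to 2.36, all below background. Tor1aip1 1458364_s_at read 8.68 in IFN-alpha replicate 4 at 1 h, with the others at 7.90 to 7.98. Tor1aip2 1448958_at read 7.64 in IFN-gamma replicate 2 at 1 h, against 8.52 to 8.66 on the others, and 7.38 in mock replicate 2, against 8.46 to 8.69. Tor1aip2 1418116_at read 9.21 in mock replicate 2, against 8.25 to 8.39. These last 3 are on arrays of low 5′ actin signal, whose part in the values was not tested.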

How the results depend on the processing

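Of the direct comparisons of the interferons and of 4sU with none, 378 values of 27 results were computed under the alternatives, and 358 kept their direction and their side of the threshold, 4 passed it newly and 12 no longer passed it. The other 4 changed sign without a call in either fit and were at most 0.17 in size, with the largest for Tor1aip1 1426084_a_at between 4sU and none (0.17 without the arrays of low 5′ actin signal, in place of -0.18). Between the interferons at 1 h, 1 of 9 member probe sets was called, beside 0.104% of all called higher. This number was 0 with only the arrays of the groups compared and 1 to 2 with 1 array left out (2 without IFN-alpha replicate 3). At 3 h, 7 of the 8 probe sets other than 1450454_at were called, beside 0.761% of all called higher. With 1450454_at, which was kept through its IFN-alpha arrays at 3 h alone, the number was 8 of 9. It was 6 to 7 of 9 with 1 array left out. For IFN-gamma at 3 h against mock the number of list genes called, 1 (Abl2), was 0 with arrays centred on their medians and 0 to 1 with 1 array left out. Among the fits with 1 array left out it was kept in that without IFN-gamma replicate 1 alone (adjusted p = 0.0449), and the settings other than centring and left-out arrays kept it at adjusted p of 0.00178 to 0.0125. With the replicate number as a block, 9 of 9 were called at 3 h (1435526_at of Tor1aip2 added, no other member's call changed) and 1 of 9 at 1 h, and over all probe sets calls between the interferons at 3 h were 281 higher and 322 lower in place of 147 and 178. At 1 h these were 68 and 98 in place of 20 and 50. Arrays with and without 4sU share only a number, and there the block gave 24 higher and 87 lower in place of 0 and 6, with 0 of 9 members. Among described values, 20 moved, some of which were the numbers of most alike genes that stayed. The others were log2 differences that moved by over 1 SD between replicates. Some of these, each of a Tor3a probe set, moved with a floor of log2 4 (1450454_at with IFN-alpha at 3 h, 2.90 in place of 4.55). The rest moved with mock cells without 4sU as the control, or between the mock times. The causes were not tested. Probe sets near background and 3 or 4 arrays a group limit what can be seen, most at 1 h.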
